A study of Mus musculus with 30 samples.

Results

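The 35 genes described here encode proteins of the chemical synapse, chosen by name from 48820 genes in the deposited count table, and all 35 were found and passed the filter on low counts in both tissues. They were grouped by role into 6 genes of the synaptic vesicle membrane and its cycle, 6 of the SNARE fusion machinery, 4 of the presynaptic active zone, 5 that make or load transmitter, 3 of postsynaptic calcium-calmodulin signalling, 6 postsynaptic scaffold genes and 5 genes of trans-synaptic adhesion. RNA had been sequenced from 2 brain regions, hippocampus and frontal cortex, of wild-type male C57BL/6J mice, adults aged 8 to 12 weeks and singly housed, in a model of Gulf War Illness. Every mouse, controls included, had drunk corticosterone (CORT, the stress glucocorticoid of rodents) at 200 mg/L in 0.6% ethanol for 7 days. On day 8 each received the cholinesterase inhibitor diisopropyl fluorophosphate (DFP) at 4 mg/kg intraperitoneally, and 7-day CORT courses then recurred every other week until 5 weeks had passed. Mice then received saline, with tissue taken at 6 h (3 libraries per tissue), or the bacterial endotoxin lipopolysaccharide (LPS, 0.5 mg/kg subcutaneously), with tissue taken at 6, 12 or 24 h (4 libraries per tissue and time). No mice without CORT and DFP were analysed here, and saline tissue came from 6 h alone, so collection time and LPS cannot be told apart at 12 and 24 h. A mouse code such as A222 names each library.

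At a chemical synapse, vesicles filled with transmitter dock at the active zone, where SNARE proteins fuse them with the membrane when calcium binds synaptotagmin. Complexins hold and prime that fusion, and large scaffolds such as Bassoon and Piccolo organise the release site. On the other side, PSD-family scaffolds, Shank and Homer proteins anchor glutamate receptors, and the calcium-calmodulin kinase CaMKII, with neurogranin as a store of calmodulin, turns calcium entry into lasting changes of synaptic strength, for which the hippocampus is the standard tissue of study.

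In the hippocampus, 7 of the 35 genes (20%) fell 12 h after LPS and 6 (17.1%) fell at 24 h. None was called higher. Of all genes, 12.3% and 13.4% were called in either direction, and 6.28% and 6.6% were called lower. The share at 24 h was near that of all genes called in either direction. The 12 h count was 2 without A222, A258 or A261 alone, when lower calls over all genes went from 1085 to 654, 837 and 799. The CaMKII subunit gene Camk2b had the largest fall at both times (-25.5% at 12 h and -26.7% at 24 h). Camk2a also fell at both times, and the postsynaptic scaffold genes Shank2 and Dlg4 fell at 24 h. The presynaptic genes Syn1, Rab3a and Slc17a7 were called lower at 12 h and Unc13a at 24 h, calls lost in 7 to 12 of 14 alternative settings. Genes of the SNARE machinery, of GABA synthesis and of trans-synaptic adhesion were not called, nor was Nrgn. With 12.3% and 13.4% of all genes called, groups this small can go without a call. No gene of the 35 was called in the cortex at any time, and no difference between the tissues in the response to LPS passed the test. "Called" here means an adjusted p under 0.05 (edgeR quasi-likelihood test with Benjamini-Hochberg adjustment over all genes tested), and a log2 fold change is given ± its standard error (SE).

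The sequences upstream of Camk2b, Slc17a7 and Syn1 are shown because these genes were called lower in the hippocampus at 12 h and each has a single start in the RefSeq promoter table (build GRCm38.p6). The 12 h calls of Slc17a7 and Syn1 were lost in 10 and 8 of 14 alternative settings. Capitals mark short motifs found on either strand: the GC box GGGCGG, the cAMP response element TGACGTCA, and TTCAGCACC, the left part of the RE1 element bound by the neuronal repressor REST. The motifs were picked with these windows in view, and a match is a description of letters only. Each stretch lies before the RefSeq start and is written 5′ to 3′ on the gene's strand, without bases that GENCODE M21 places in an exon.
Camk2b, chr11:6065749-6065998, minus strand, inside an intron of a longer GENCODE transcript of the gene: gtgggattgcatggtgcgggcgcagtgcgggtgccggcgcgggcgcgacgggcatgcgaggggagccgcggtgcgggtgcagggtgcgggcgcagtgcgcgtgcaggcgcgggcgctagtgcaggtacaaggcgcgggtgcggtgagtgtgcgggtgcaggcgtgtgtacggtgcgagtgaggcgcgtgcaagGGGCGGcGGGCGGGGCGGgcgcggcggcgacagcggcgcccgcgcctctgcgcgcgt
Slc17a7, chr7:45163671-45163920, plus strand: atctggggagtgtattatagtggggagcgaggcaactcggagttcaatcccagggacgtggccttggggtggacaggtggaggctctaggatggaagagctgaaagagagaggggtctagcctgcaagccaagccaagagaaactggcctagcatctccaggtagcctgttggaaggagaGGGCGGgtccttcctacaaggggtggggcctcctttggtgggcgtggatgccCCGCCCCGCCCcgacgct
Syn1, chrX:20921005-20921168, minus strand: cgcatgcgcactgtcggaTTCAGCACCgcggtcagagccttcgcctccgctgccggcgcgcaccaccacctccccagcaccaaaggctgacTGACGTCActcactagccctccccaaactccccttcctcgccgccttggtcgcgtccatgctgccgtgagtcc

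The Camk2b stretch was 78.4% G and C with 44 CpG pairs and 3 GC boxes in overlap or side by side, the Slc17a7 stretch 61.2% with 9 CpG pairs and 3 GC boxes, and the Syn1 stretch 67.1% with 16 CpG pairs. The GC box was in 32.7% of all 32851 windows of 250 bases before a RefSeq start and in 18 of the 43 windows of the 28 genes matched. The RE1 part was in 0.301% of all windows and in 2 of these 43, those of Syn1 and of Nlgn1. The cAMP response element was in 1.5% of all windows and, among the 43, in that of Syn1. The E-box was in 6.0% of all windows and 1 of the 43, and the TATA box in 12.4% and 4. The glucocorticoid response element and the NF-kB site were in 0.009% and 0.14% of all windows and in 0 of the 43. Snap25, Vamp2, Camk2a, Shank1, Shank2, Nrxn2 and Nlgn3 had no entry in the table.

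Library totals were 16826882 to 33034295 counts. Of 13 hippocampal neuron markers 12 were called higher in the hippocampus, and of 12 cortical neuron markers 8 were called higher in the cortex. The other 4 cortical markers were called higher in the hippocampus (Fezf2, Bcl11b, Neurod6 and Neurod2, with log2 fold changes of 0.42, 1.24, 1.52 and 1.09), and Neurod6 and Neurod2 stand on both lists. Some libraries stood apart. The summed CPM (a gene's counts relative to the library's total, TMM scaled) of 7 choroid plexus and ependyma markers reached 2390 in A261 (LPS 12 h) and 1310 in A222 (saline) among hippocampal libraries, the others lying between 50 and 399, so the hippocampal counts against saline are also given without these libraries. In the cortex, saline A224 had the highest sum of the same markers (1070, the others 19.1 to 486) and of 10 striatal neuron markers (1310, the others 281 to 796). The share of counts in coding genes with over 10000 exon bases, leaving out the 35 genes, ranged in the cortex from 9.65% in LPS 6 h A242 to 12.6% in saline A226, and in the hippocampus from 11.9% to 13.6%. Exons of Nlgn3 are shared over 41.24% of their length with another gene on the same strand. Those of Slc32a1 (24.92%), Syp (16.79%), Nlgn1 (9.16%) and Nrxn2 (6.44%) are shared with genes on the opposite strand. The strand setting of the count is not given in the sources used here, so values of these 5 genes are uncertain.

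After saline, the genes spanned a wide range of level per kilobase of exon in both tissues. Levels in this paragraph are CPM per kb, from scaling over all 30 libraries, as mean ± SD (n = 3). Nrgn, which encodes neurogranin, was highest at 996 ± 92.8 in the hippocampus and 1150 ± 92.6 in the cortex. Camk2a, the CaMKII alpha subunit gene, came second at 633 ± 23.7 and 520 ± 71.1. Next in the hippocampus were the complexin gene Cplx2 at 395 ± 18.3, the SNARE gene Snap25 at 339 ± 14.5 and Slc17a7, the main cortical and hippocampal vesicular glutamate transporter gene, at 302 ± 4.48. In the cortex Snap25 (509 ± 49.1) lay within the spread of Camk2a, followed by Cplx1 at 399 ± 32 and Cplx2 at 306 ± 2.77. Lowest were Slc17a6, the vesicular glutamate transporter gene typical of thalamus and brainstem (3.43 ± 0.862 in the hippocampus and 5.08 ± 0.796 in the cortex), and Nlgn3 (4.71 ± 0.423 and 3.73 ± 0.144). Vesicle genes, such as Sv2b (68.6 ± 2.47 and 67.1 ± 5.44), lay between these ends.

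**Figure D1:**
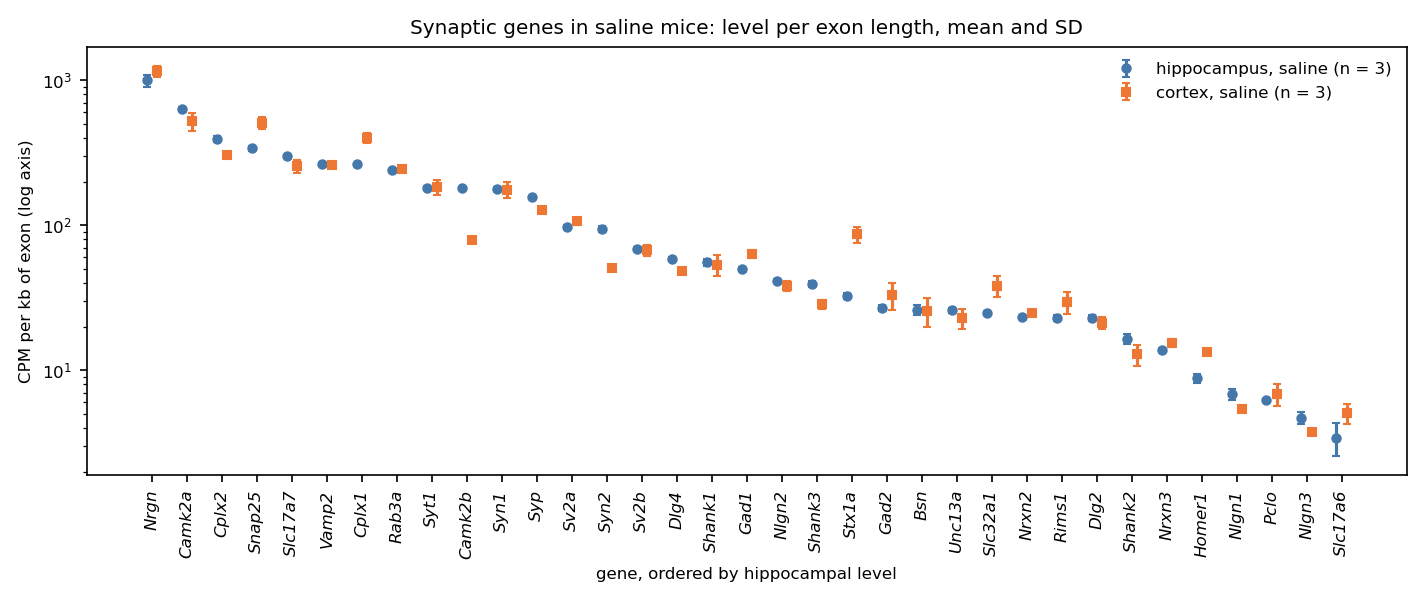
Level of each of the 35 synaptic genes in saline mice, in CPM per kb of exon on a log axis, with genes ordered by their hippocampal level; points are means and bars SD (n = 3) for hippocampus (circles) and cortex (squares). Nrgn (996 and 1150 CPM per kb) and Camk2a (633 and 520) head both tissues, and the tissues separate most for Camk2b, Stx1a and Syn2.

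The saline tissues were compared to show how the same synaptic genes are set in the hippocampus and the frontal cortex. Of the 35 genes, 11 were higher in the hippocampus and 9 lower, 57.1% of them, where 37.1% of all 17650 genes tested were called. Values in this paragraph and the next are CPM scaled over all 30 libraries, as mean ± SD (n = 3). Camk2b, the beta subunit that ties CaMKII to actin, was at 1630 ± 29.5 in the hippocampus and 727 ± 12.4 in the cortex (log2 fold change 1.17 ± 0.07, adjusted p = 1.14e-14). Syn2, a synapsin that tethers vesicles, was at 667 ± 32.1 against 355 ± 10.1 (0.91 ± 0.05, adjusted p = 6.13e-15). Shank3 differed by 0.45 ± 0.09, Cplx2 by 0.37 ± 0.06, Shank2 by 0.36 ± 0.12 and Nlgn3 and Nlgn1 both by 0.34 (SE 0.07 and 0.08), all higher in the hippocampus. Also called higher were Dlg4 (0.29 ± 0.05), Syp (0.29 ± 0.05), Camk2a (0.28 ± 0.1) and Slc17a7 (0.25 ± 0.07).

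Stx1a, which encodes the plasma membrane SNARE syntaxin 1A, was at 86.5 ± 4.17 in the hippocampus against 230 ± 30.7 in the cortex (-1.41 ± 0.08, adjusted p = 4.6e-16). Its fusion partners Snap25 (-0.59 ± 0.07) and Cplx1 (-0.6 ± 0.06) were lower in the hippocampus too, while Vamp2 (0.02 ± 0.04) and Syt1 (-0.02 ± 0.08) were not called. Slc32a1, the vesicular GABA transporter gene, was at 69.1 ± 2.02 against 107 ± 17.4 (-0.63 ± 0.11, adjusted p = 1.74e-05), Gad1 at 383 ± 10.5 against 485 ± 30.8 (-0.34 ± 0.07, adjusted p = 0.000176), and Gad2 was not called (-0.29 ± 0.13, adjusted p = 0.0869). Homer1 (-0.6 ± 0.15), Slc17a6 (-0.58 ± 0.18), Rims1 (-0.36 ± 0.12) and Nrgn (-0.21 ± 0.07) were the other genes called lower. The 14 comparisons share libraries, so these are not independent of the LPS comparisons. Cortex saline A224, with the highest striatal marker sum, also had the highest saline CPM of Slc32a1 (127) and Gad2 (239). Without it Slc32a1 and Gad1 were still called lower, and 8 rather than 11 of the genes were called higher. With the mouse as a block, 9 were higher and 7 lower, and the calls of Camk2a, Shank2, Rims1 and Nrgn were lost (adjusted p = 0.0868, 0.0663, 0.121 and 0.0583). In that fit only mice A224 and A226, which gave both saline tissues, inform this comparison, so pairing and fewer mice cannot be told apart. Without hippocampus A222 the calls of Camk2a, Shank2 and Nrgn were lost. The Slc17a6 call was lost in 3 and the Rims1 call in 4 of 11 alternative settings, among them without hippocampus A226 and without cortex A226. Over all genes, 3513 were called higher and 3039 lower, against 3159 and 2862 without cortex A224. With the mouse as a block, these numbers were 2774 and 2565.

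**Figure D2:**
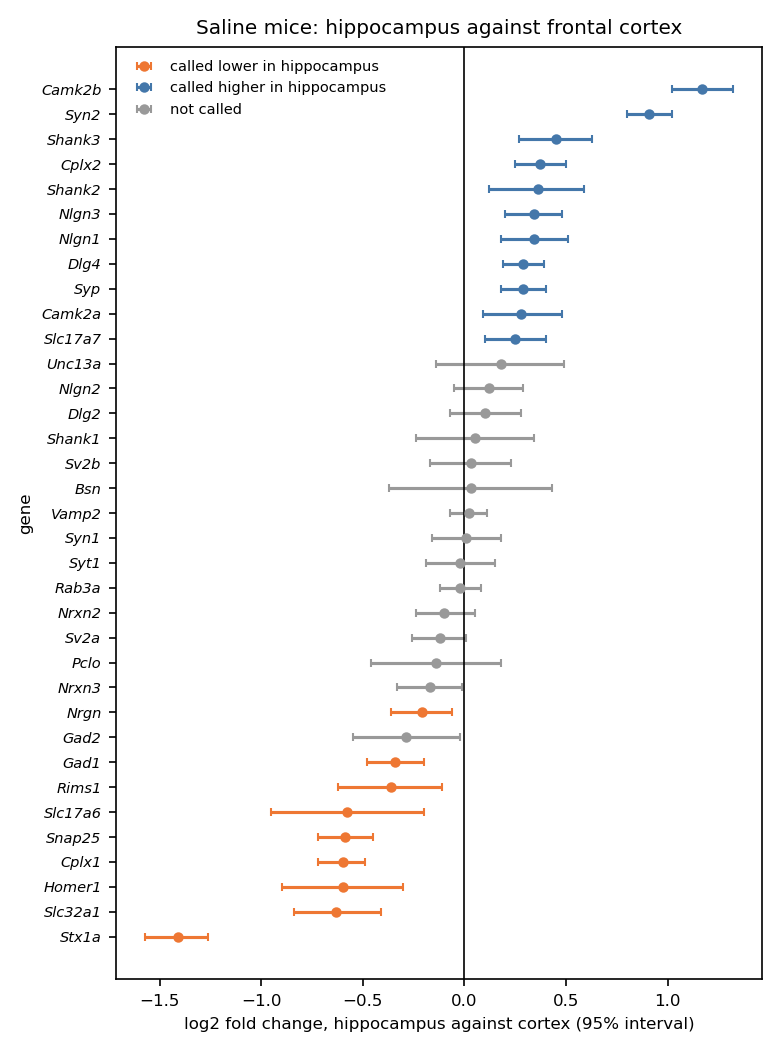
Log2 fold change of each of the 35 synaptic genes between hippocampus and frontal cortex in saline mice, with 95% intervals; blue points were called higher in the hippocampus, orange ones lower and grey ones were not called. Camk2b (1.17) and Syn2 (0.91) lie farthest to the right and Stx1a (-1.41) farthest to the left.

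At 6 h after LPS the hippocampus gave no call among the 35 genes with edgeR, where 5.11% of all genes were called. An unadjusted p under 0.05 was held by 2 of the 35, beside 2515 of all 17289 genes, and DESeq2 called 1 lower. Camk2b came nearest to a call. From here on CPM are scaled within a tissue. It read 1630, 1620 and 1580 CPM in saline A222, A224 and A226, and 1530, 1380, 1350 and 1360 in LPS 6 h A240 to A243. All 4 LPS libraries lay below all 3 saline libraries, A240 nearest to them (log2 fold change -0.2 ± 0.06, adjusted p = 0.0504). Without A240 it was called (-0.24), and without A222 and A261 none of the 35 genes was called. Camk2a read 4880, 4580 and 4510 in saline and 4380, 4160, 4170 and 4150 at 6 h, again without overlap (-0.14 ± 0.05, adjusted p = 0.0817). The median of the 35 log2 fold changes was -0.04 and 28 were negative, while the median of all genes was -0.004.

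The comparison at 12 h asked which synaptic genes had moved in the hippocampus later in the response. Among the 35 genes 7 were called lower and 0 higher (13 at an unadjusted p under 0.05, and DESeq2 called 9 lower and 1 higher), which is 20% where 12.3% of all genes were called in either direction and 6.28% were called lower. Their median was -0.06 and 26 of 35 were negative, against a median of 0.006 over all genes. An unadjusted p under 0.05 was held by 4120 of all 17289 genes, beside the 13 of 35. Without saline A222 and LPS A261, the libraries with most choroid plexus RNA, 2 were called lower, Camk2a and Camk2b. The number was also 2 without A222, A258 or A261 alone and with library totals as the scaling, 4 without A224 or A226, and 1 with both tissues in the same fit. Lower calls over all genes dropped as well, from 1085 to 518 without both A222 and A261. They were 654, 837 and 799 without A222, A258 or A261 alone, and 693 with library totals. Without A224 or A226 they were 760 and 1073, and with both tissues in the same fit 721.

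At 24 h, 6 of the 35 genes were called lower and 0 higher (17 at an unadjusted p under 0.05, and DESeq2 called 7 lower and 1 higher), which is 17.1% where 13.4% of all genes were called and 6.6% were called lower. Their median was -0.1 and 27 were negative, against -0.003 over all genes. Over all 17289 genes, 4403 had an unadjusted p under 0.05. Lower calls over all genes went from 1141 to 707 without A222 and A261. Without these libraries 4 of the 35 genes were called lower: Camk2b, Camk2a, Dlg4 and Shank2. These 4 were called at 24 h under all 14 alternative settings, and Camk2b at 12 h as well. In bulk tissue, fewer cells of a type and less RNA per cell cannot be told apart. Beside these calls, 12 neuronal markers that are not synaptic summed to 5090 to 5400 CPM in saline, 5010 to 5190 at 12 h and 4820 to 5120 at 24 h, with 1 and 3 of the 12 called lower. The 9 microglia markers summed to at most 277 in saline, 280 to 306 at 12 h and 408 to 442 at 24 h (4 and 9 called higher). Their part in the result was not tested.

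**Figure D3:**
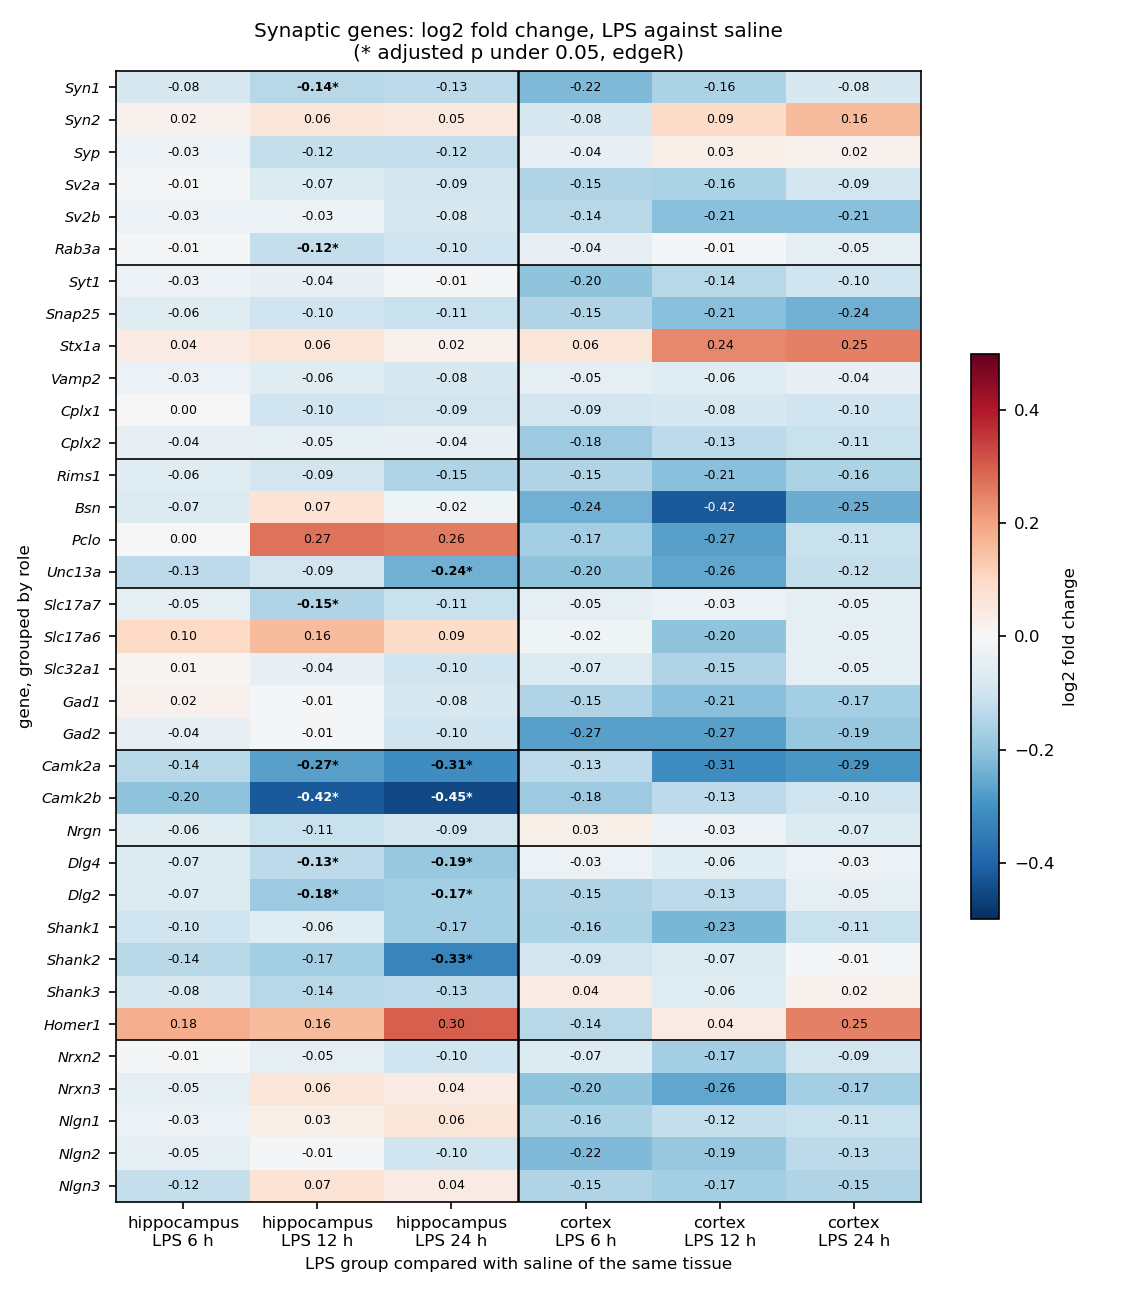
Log2 fold change of each of the 35 synaptic genes (rows, grouped by role) in each LPS group against saline of the same tissue (columns); the number in a cell is its value, colour runs from -0.5 (blue) to 0.5 (red), and an asterisk marks an adjusted p under 0.05 (edgeR). All 13 marked cells are negative and lie in the hippocampal columns at 12 and 24 h.

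Of the 3 postsynaptic calcium-calmodulin genes, Camk2b and Camk2a fell and Nrgn was not called. Camk2b (ENSMUSG00000057897.14, GRCm38 chromosome 11, 5969644 to 6066362) read 1180, 1090, 1310 and 1210 CPM in LPS 12 h A258 to A261, and 1140, 1160, 1300 and 1120 in LPS 24 h A274, A275, A276 and A278. Every one of these 8 libraries lay below the saline libraries (1580 to 1630). The log2 fold changes were -0.42 ± 0.06 at 12 h (adjusted p = 1.74e-05) and -0.45 ± 0.06 at 24 h (adjusted p = 7.56e-06). The level at 12 h was also below that at 6 h (-0.23 ± 0.05, adjusted p = 0.023), the one call among the 35 genes between those times, where 2.14% of all genes were called. That call was lost without A240, A241, A258 or A259. No gene of the 35 was called between 24 and 12 h with edgeR or DESeq2, where 2.14% of all genes were with edgeR. At an unadjusted p under 0.05 stood 2 of the 35 and 2587 of all 17289 genes.

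Camk2a, the most abundant kinase gene of the postsynaptic density, read 3770, 3620, 4300 and 3800 CPM at 12 h and 3790, 3800, 3750 and 3650 at 24 h, all below the saline range of 4510 to 4880. Its log2 fold changes were -0.27 ± 0.05 (adjusted p = 0.000303) and -0.31 ± 0.05 (adjusted p = 3.71e-05), and the 12 h call was lost with both tissues in the same fit. Nrgn, the calmodulin store of the spine, overlapped saline at both times (-0.11 ± 0.06, adjusted p = 0.243, and -0.09 ± 0.06, adjusted p = 0.325).

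**Figure D4:**
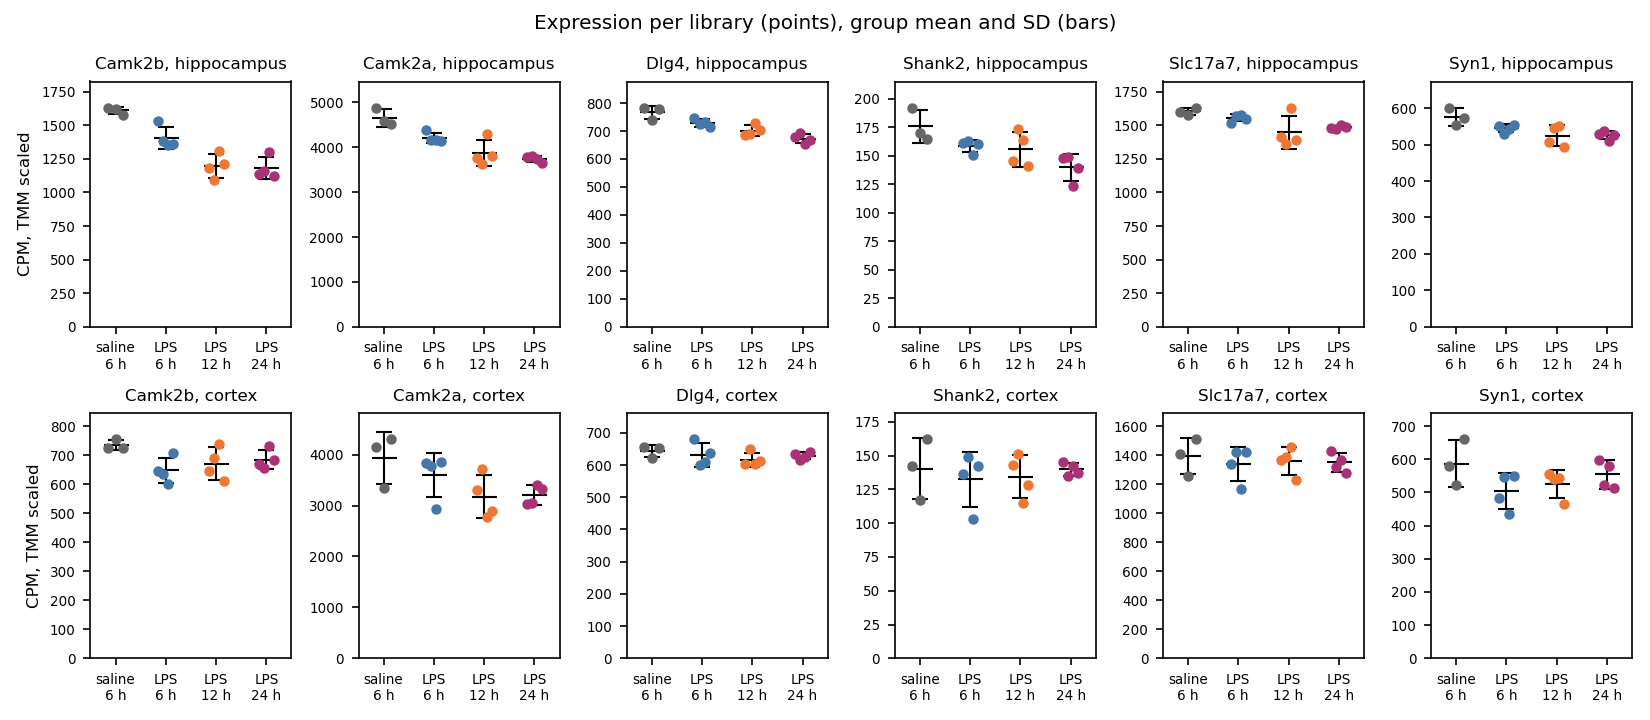
CPM (TMM scaled within a tissue, axes from 0) of 6 synaptic genes called lower in the hippocampus after LPS, in hippocampus (top) and cortex (bottom); points are libraries and bars the group mean and SD (saline n = 3, LPS n = 4). Hippocampal Camk2b drops from 1580 to 1630 CPM in saline to 1120 to 1300 at 24 h, while cortical Camk2b overlaps saline at 12 and 24 h.

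Among the 6 postsynaptic scaffold genes, 2 were called lower at 12 h and 3 at 24 h. Dlg4, which encodes PSD-95, the central scaffold of excitatory synapses (ENSMUSG00000020886.16, chromosome 11, 70016942 to 70047522), read 783, 740 and 779 CPM in saline. It read 686, 689, 727 and 703 at 12 h and 678, 693, 652 and 668 at 24 h, below saline in every library (-0.13 ± 0.04, adjusted p = 0.0288, and -0.19 ± 0.04, adjusted p = 0.00144). The 12 h call of Dlg4 was lost in 9 of 14 alternative settings, among them without A222, A226, A258, A259 or A261. Shank2, a scaffold that links the PSD-95 complex to Homer and actin (ENSMUSG00000037541.20, chromosome 7, 144001928 to 144424494), read 192, 170 and 165 in saline and 148, 149, 123 and 139 at 24 h, without overlap (-0.33 ± 0.07, adjusted p = 0.00381). Its 12 h values of 145, 173, 164 and 141 overlapped saline (-0.17 ± 0.07, adjusted p = 0.144). Dlg2, which encodes the related scaffold PSD-93, read 370, 383 and 350 in saline, 312, 352, 340 and 297 at 12 h and 335, 349, 296 and 324 at 24 h. LPS 12 h A259 lay just inside the saline range (-0.18 ± 0.06, adjusted p = 0.0437), and the 24 h values lay below it (-0.17 ± 0.06, adjusted p = 0.0447). The Dlg2 calls were lost in 8 and 10 of 14 alternative settings.

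The other scaffold genes were not called. Shank3 lay at -0.14 ± 0.05 at 12 h (adjusted p = 0.0559) and Shank1 at -0.17 ± 0.09 at 24 h (adjusted p = 0.244). Homer1, which encodes both long scaffold forms and a short activity-induced form that a gene count does not separate, was the scaffold gene with positive values. It read 108, 107 and 95.7 CPM in saline and 139, 146, 97.4 and 129 at 24 h, where A276 alone stayed in the saline range (0.3 ± 0.1, adjusted p = 0.0693). Without A276 it was called higher (0.42), and DESeq2 also called it higher. In the same library Rims1 (126), Bsn (342), Shank1 (413) and Shank3 (303) had their lowest hippocampal values. So did Shank2 (123), Unc13a (246), Dlg4 (652) and Dlg2 (296), which were called lower at 24 h. Without A276 the 24 h calls of Shank2 and Dlg4 held and those of Unc13a and Dlg2 were lost.

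Of the 6 vesicle genes, Syn1 and Rab3a were called lower at 12 h in the hippocampus. Syn1, the synapsin gene of the reserve vesicle pool (ENSMUSG00000037217.15, chromosome X, 20860511 to 20921004), read 601, 554 and 573 CPM in saline and 506, 546, 552 and 493 at 12 h, with A260 close to the saline range (-0.14 ± 0.04, adjusted p = 0.047). Its 24 h values of 530, 536, 511 and 526 also lay below saline without a call (-0.13 ± 0.04, adjusted p = 0.0524). Rab3a, the vesicle GTPase gene (ENSMUSG00000031840.12, chromosome 8, 70754679 to 70758677), read 530, 523 and 535 in saline and 492, 482, 500 and 469 at 12 h (-0.12 ± 0.04, adjusted p = 0.0484). At 24 h its values of 481, 474, 522 and 495 gave -0.1 ± 0.04 (adjusted p = 0.104). The Syn1 call was lost in 8 and the Rab3a call in 12 of 14 alternative settings, among them those without A222. Syp, which encodes the vesicle protein synaptophysin, read 785, 808 and 816 in saline, 763, 719, 766 and 710 at 12 h and 735, 728, 780 and 723 at 24 h, below saline throughout but not called (adjusted p = 0.071 and 0.0779). Syn2, Sv2a and Sv2b lay between -0.09 and 0.06 at both times and were not called.

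The 6 SNARE and calcium control genes gave no hippocampal call. Snap25, which encodes a SNARE of the plasma membrane, read 2180, 2260 and 2370 CPM in saline. It read 2140, 2050, 2260 and 2010 at 12 h and 2090, 2040, 2140 and 2110 at 24 h, when all LPS libraries lay below saline (-0.11 ± 0.04, adjusted p = 0.0746). The interval of that difference ran from -0.2 to -0.03. Vamp2, Cplx1, Cplx2 and the calcium sensor gene Syt1 had log2 fold changes of -0.1 to -0.01 at 12 and 24 h, and Stx1a 0.06 and 0.02.

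At the active zone, Unc13a, the Munc13 priming factor gene (ENSMUSG00000034799.16, chromosome 8, 71624417 to 71671757), was called lower at 24 h. It read 334, 319 and 311 CPM in saline, 311, 337 and 283 in A259 to A261 at 12 h, with A258 lowest, and 289, 285, 246 and 271 at 24 h, below saline only at the later time (-0.24 ± 0.07, adjusted p = 0.0188). That call was lost in 7 of 14 alternative settings, among them without A222, A224, A276 or A278. Pclo, the Piccolo gene, had positive values without a call: it read 140, 136 and 138 in saline, 151, 206, 164 and 147 at 12 h and 180, 177, 147 and 159 at 24 h. All 8 values lay above saline (0.27 ± 0.11, adjusted p = 0.144, and 0.26 ± 0.11, adjusted p = 0.151), and DESeq2 called it higher at 12 h. Its highest library, A259, also had the highest share of counts in other long coding genes in the hippocampus (13.6%) and the highest Bsn value (530). Whether that share has a part in the Pclo values was not tested.

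Of the 5 genes that make or load transmitter, Slc17a7 was called lower in the hippocampus at 12 h. It (ENSMUSG00000070570.5, chromosome 7, 45163949 to 45176142) read 1600, 1580 and 1630 CPM in saline and 1410, 1360, 1630 and 1390 at 12 h, with A260 inside the saline range and the other 3 libraries below it (-0.15 ± 0.05, adjusted p = 0.0375). At 24 h it read 1480, 1470, 1500 and 1490, all below saline, without a call (-0.11 ± 0.05, adjusted p = 0.138). The 12 h call was lost in 10 of 14 alternative settings. Gad1, which makes GABA, read 378, 387 and 369 in saline, 365, 418, 376 and 343 at 12 h and 367, 364, 346 and 355 at 24 h (-0.01 ± 0.05 and -0.08 ± 0.05, adjusted p = 0.948 and 0.356). Gad2 and Slc32a1 lay between -0.1 and -0.01 at these times and were not called. Slc17a6 was at 14.4 to 29.4 in all hippocampal libraries, highest in A259, whose 7 measured thalamic neuron markers also summed highest (84.4 CPM against 64.7 to 81.1). The 5 adhesion genes lay between -0.1 and 0.07 at 12 and 24 h, and none was called.

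In the cortex the same comparisons asked whether frontal synaptic genes moved, and edgeR called 0 of the 35 at 6, 12 and 24 h (7, 6 and 5 at an unadjusted p under 0.05), where 3.5%, 7.13% and 6.11% of all genes were called. DESeq2 called 0, 0 and 3 (at 24 h Stx1a and Syn2 higher and Snap25 lower). The medians of the 35 were -0.15, -0.15 and -0.1, further below 0 than in the hippocampus at 6 and 12 h, with 32, 31 and 30 negative values. Medians of all genes were 0.013, 0.009 and -0.001. At an unadjusted p under 0.05 stood 3250, 3332 and 2832 of all 17111 genes. The spread between cortical libraries was wider (common biological coefficient of variation 0.103 against 0.069). Its part in the absence of cortical calls was not tested. Between times, edgeR called 0 of the 35 at 12 against 6 h (2 at an unadjusted p under 0.05, and DESeq2 called 1), where 1.23% of all genes were called. At 24 against 12 h edgeR and DESeq2 called 0 (0 at an unadjusted p under 0.05), where 0% of all genes were called. Over all 17111 genes, 2378 and 310 had an unadjusted p under 0.05 in these comparisons.

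Cortical Camk2a read 4140, 3340 and 4300 CPM in saline A223, A224 and A226. It read 3830, 3770, 2940 and 3850 at 6 h, 3310, 3710, 2770 and 2900 at 12 h and 3020, 3050, 3410 and 3330 at 24 h. Saline A224 lay among the LPS values, and no difference was called (12 h, -0.31 ± 0.11, adjusted p = 0.113; 24 h, -0.29 ± 0.11, adjusted p = 0.153). It was called at 12 h without A224 (-0.41), without LPS A259 (-0.4) and with both tissues in the same fit (-0.31). Camk2b read 726, 755 and 726 in saline, 646, 634, 602 and 708 at 6 h, 645, 690, 740 and 611 at 12 h and 669, 657, 732 and 683 at 24 h. All 6 h libraries lay below saline and later ones overlapped it (-0.18 ± 0.07, -0.13 ± 0.07 and -0.1 ± 0.07, with adjusted p = 0.178, 0.331 and 0.55).

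Among cortical release genes, Snap25 read 3430, 3220 and 3840 CPM in saline. It read 3200, 3110, 3000 and 2760 at 12 h and 3140, 2890, 3060 and 2750 at 24 h, without overlap and without a call (-0.21 ± 0.08, adjusted p = 0.113, and -0.24 ± 0.08, adjusted p = 0.0755). Stx1a read 233, 203 and 263 in saline and 303, 282 and 268 in A274, A275 and A278 at 24 h, while A276 lay just below the highest saline library (0.25 ± 0.08, adjusted p = 0.0636). Without saline A226 it was called higher at 12 h (0.33) and 24 h (0.35). Syp (0.03 ± 0.06 at 12 h and 0.02 ± 0.06 at 24 h), Slc17a7 (-0.03 ± 0.08 and -0.05 ± 0.08) and Dlg4 (-0.06 ± 0.06 and -0.03 ± 0.06) overlapped saline. Syp read 662, 674 and 687 in saline, 634 to 668 at 6 h, 648 to 733 at 12 h and 667 to 713 at 24 h. Dlg4 read 655, 621 and 654, then 599 to 680, 602 to 649 and 615 to 641. Slc17a7 read 1410, 1260 and 1510, then 1170 to 1420, 1230 to 1460 and 1280 to 1430. Homer1 read 159, 157 and 168 in saline and 228, 159 and 158 in A274, A276 and A278 at 24 h, with A275 close to A274, so 2 libraries were high and 2 stayed at the saline level (0.25 ± 0.14, adjusted p = 0.439).

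None of the inhibitory genes was called in the cortex. Gad1, the main GABA-synthesis gene, read 455, 505 and 512 CPM in saline and 432, 446, 431 and 392 at 12 h, all below saline (-0.21 ± 0.07, adjusted p = 0.107). Gad2 was highest in saline A224 and at 129 to 213 in all other cortical libraries, and Slc32a1 at 129 in A224 and 86.9 to 126 in the others. A224 had the highest striatal marker sum, and the libraries with the lowest sums (A226, A274 and A241, 281 to 308 CPM) read 95.5, 89.7 and 86.9 for Slc32a1. The part of striatal tissue in the Gad2 and Slc32a1 values was not tested. Bsn, the Bassoon gene, ranged most widely among the release-site genes, at 401, 330 and 508 in saline, 370, 442, 235 and 352 at 6 h, 345, 384, 247 and 257 at 12 h and 391, 317, 356 and 325 at 24 h (-0.42 ± 0.21 at 12 h, adjusted p = 0.29). Its low libraries A242, A260 and A261 had 9.65%, 11% and 10.5% of their counts in other long coding genes, and Unc13a was lowest in the same 3 (203, 191 and 194). A240, with a share of 10.2%, read 370 for Bsn, inside the saline range. The part of this share in the values was not tested.

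**Figure D5:**
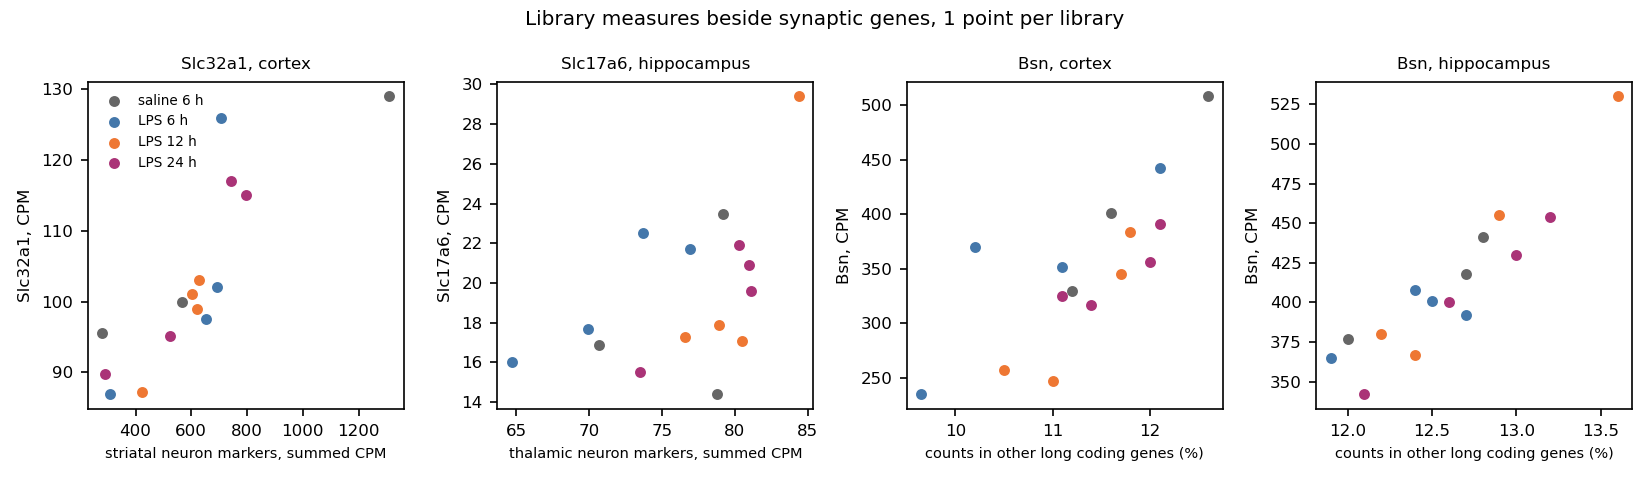
Synaptic genes beside measures of the same library, 1 point per library (15 per tissue, coloured by group, axes not starting at 0): cortical Slc32a1 against summed CPM of 10 striatal neuron markers, hippocampal Slc17a6 against summed CPM of thalamic neuron markers, and Bsn in both tissues against the share of counts in other coding genes with over 10000 exon bases. Cortex saline A224 is the point with the highest Slc32a1 (129) and striatal sum (1310), and hippocampus LPS 12 h A259 that with the highest Slc17a6 (29.4) and Bsn (530).

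Whether LPS acted differently on the 35 genes in the hippocampus and the cortex was tested as an interaction in the fit of all 30 libraries. An unadjusted p under 0.05 was held by 1031, 1744 and 1484 of all 17650 genes at 6, 12 and 24 h. No gene of the 35 was called at these times by edgeR or DESeq2, where 0%, 0.0963% and 0.125% of all genes were called with edgeR. Among the 35, 1, 6 and 4 had an unadjusted p under 0.05. Camk2b had the smallest p, with its 24 h change lower in the hippocampus than in the cortex by 0.35 on the log2 scale (-0.35 ± 0.09, 95% interval -0.54 to -0.15, unadjusted p = 0.000896, adjusted p = 0.233). At 12 h the differences were -0.29 ± 0.09 for Camk2b, 0.33 ± 0.1 for Nrxn3, a presynaptic adhesion gene, and 0.54 ± 0.2 for Pclo (adjusted p = 0.253, 0.25 and 0.357). For Shank2 at 24 h it was -0.32 ± 0.15 and for Dlg4 -0.16 ± 0.07 (adjusted p = 0.589 and 0.521). The calls in the hippocampus are therefore not shown to differ from the values in the cortex.

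A wider list of synaptic genes (137 measured: 62 presynaptic and 75 postsynaptic or adhesion genes) was counted beside the 35. In the hippocampus 1 was higher and 2 lower at 6 h, 3 and 22 at 12 h and 5 and 16 at 24 h, with medians of -0.04, -0.06 and -0.07. These are 2.19%, 18.2% and 15.3% of the list, where 5.11%, 12.3% and 13.4% of all genes were called in either direction. The share at 24 h was near that background and the share at 6 h below it. The lower calls alone were 2, 22 and 16 of the 137, where 2.15%, 6.28% and 6.6% of all genes were called lower. At 12 h, 14 of 75 postsynaptic and adhesion genes and 8 of 62 presynaptic genes were lower, beside that 6.28% of all genes. At 24 h, 12 of 75 and 4 of 62 were lower, beside 6.6% of all genes. The spine gene Ppp1r9b, which encodes the actin-binding protein spinophilin, was lower at all 3 times, by -0.34 ± 0.04 at 24 h (1380 ± 25.2 against 1750 ± 45.1 CPM, adjusted p = 9.22e-07). Cnih2, an auxiliary AMPA receptor subunit gene (-0.32 ± 0.06, adjusted p = 0.000234), and Kalrn, a spine guanine nucleotide exchange factor gene (-0.27 ± 0.06, adjusted p = 0.00473), were lower at 12 and 24 h. Dlg3, a scaffold gene of the PSD-95 family, was at -0.25 ± 0.05 at 24 h (adjusted p = 0.000443). Higher at 24 h were the adhesion genes Lrrtm2 (0.28 ± 0.06, adjusted p = 0.0017) and Cadm2 (0.29 ± 0.06, adjusted p = 0.00156), and the low-level vesicle genes Doc2a (0.7 ± 0.18, adjusted p = 0.0086) and Syngr2 (0.4 ± 0.12, adjusted p = 0.0261).

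Cortical calls on the wider list numbered 1 lower at 6 h, 1 higher and 5 lower at 12 h and 1 higher and 4 lower at 24 h. These are 0.73%, 4.38% and 3.65% of the list, each below the share of all genes called in either direction (3.5%, 7.13% and 6.11%). The lower calls alone were 1, 5 and 4 of the 137, where 1.2%, 3% and 2.38% of all genes were called lower. Erc2, an active zone scaffold gene, was lower at all 3 times (-0.44 ± 0.08 at 12 h, adjusted p = 0.00218). Syn3, the third synapsin gene, was lower at 12 h (-1.24 ± 0.21, 6.36 ± 1.37 against 14.9 ± 1.6 CPM, adjusted p = 0.00106) and at 24 h (-0.97 ± 0.21, adjusted p = 0.0074). Cbln4, a synaptic organiser gene, was also lower at both (-0.71 ± 0.16, adjusted p = 0.00926, and -0.65 ± 0.16, adjusted p = 0.018), and Syt17 higher (0.5 ± 0.1, adjusted p = 0.0035, and 0.54 ± 0.1, adjusted p = 0.002).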

How the data were processed

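The authors deposited 1 table of unnormalised gene counts covering 30 libraries. Per the labels, libraries were poly(A)-selected and stranded, read as 150 bp pairs, and 1 hippocampal saline library had been excluded by the submitters (not analysed here). Tools named per the submitters' processing notes are STAR 2.6.0a, Trim Galore 0.4.1, DESeq2 and FastQC, with the build GRCm38 (mm10). For the counter, its annotation and whether it used strand, the sources give nothing. Symbols and coordinates are from GENCODE M21 on GRCm38, counted from 1, and 98.6% of 48820 identifiers had a symbol.

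The 35 genes and all lists were chosen with earlier results of these data known. The 15 libraries of a tissue entered the same edgeR 4.0.16 model (R 4.3.3, filterByExpr, minimum count 10 and total 15, TMM, robust glmQLFit, glmQLFTest, tested on simulated data), and all 30 for tissue comparisons and interactions. Genes tested were 17289, 17111 and 17650. P-values are two-sided and adjusted within each of 14 comparisons. Replicates are separate mice. Chi-square per gene between replicates was 2.46 to 30.34, above sampling noise. Alternatives were DESeq2 size factors, library totals, no filter, DESeq2 1.42.0, 1 fit of both tissues, a fit of only the 2 groups compared, the mouse as a block, and each library left out. Leaving out hippocampus A222 and A261 was added after seeing the data.

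Mouse codes in the labels pair the tissues: 14 of 16 mice gave both. Across 13591 genes, same-mouse deviations from the group means had correlations of -0.062 to 0.293 (median 0.104). Genes given by library were those called in an LPS comparison, plus Snap25, Syp, Slc17a7, Gad1, Camk2a, Dlg4 and Homer1, and a few others chosen after their values were seen (Pclo, Bsn, Stx1a, and cortical Camk2b, Gad2 and Slc32a1). Of the wider list at most 4 called genes per direction and comparison were named.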

Additional observations from a re-analysis of the deposited data

Results flagged for a closer look

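Within the LPS groups of 4 libraries, each gene's highest and lowest library was set against the gap that chance exceeds in about 1 group in 20, and 10 of 210 gene and group combinations had a library beyond it. That is about the number chance alone gives, so the libraries below are described and nothing is read from their flags. Hippocampus LPS 12 h A259 accounted for 3: it was high for Slc17a6 (29.4 CPM, the others at most 17.9) and Gad2 (180, the others at most 149) and low for Nrgn (1200, the others at least 1360). The same library had the highest thalamic marker sum and the highest long-gene share in the hippocampus. Hippocampus LPS 6 h A240 was high for Camk2a (4380, the others at most 4170) and Camk2b (1530, the others at most 1380), nearest to saline of its group. Hippocampus LPS 24 h A276 was low for Shank3 (303, the others at least 330).

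In the cortex, LPS 6 h A242 was low for Camk2a (2940, the others at least 3770) and Dlg2 (272, the others at least 328), and it had the lowest long-gene share. Cortex LPS 12 h A261 was low for Nlgn2 (163, the others at least 204), and A259 high for Slc17a6 (26.9, the others at most 23.7).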

How the results depend on the processing

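No call among the 35 genes changed direction. In the hippocampus at 6 h, higher calls numbered 1 with no filter and 1 in the 2 groups alone; lower calls numbered 1 with DESeq2 size factors, 2 with no filter, 1 with DESeq2, 2 in the 2 groups alone and 0 to 1 with a library left out. At 12 h, higher calls numbered 1 with no filter and 1 with DESeq2; the 7 lower calls became 2 with library totals, 2 in the 2 groups alone, 1 with both tissues in 1 fit, 2 without A222 and A261, and 2 to 10 with a library left out. At 24 h, higher calls numbered 1 with library totals, 2 with no filter, 1 with DESeq2, 1 in the 2 groups alone and 0 to 1 with a library left out, and the 6 lower calls stayed between 4 and 9. For 12 against 6 h, 1 was higher with no filter, 2 lower with DESeq2, 0 lower with both tissues in 1 fit and 0 to 3 lower with a library left out. For 24 against 12 h, 0 to 1 was higher with a library left out. Over all genes, the 1085 lower calls at 12 h became 693 with library totals and 754 in the 2 groups alone. They became 721 with both tissues in 1 fit and 518 without A222 and A261.

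In the cortex 1 was lower at 6 h with both tissues in 1 fit. At 12 h, 1 was higher with library totals, 1 with both tissues in 1 fit and 0 to 1 with a library left out, and 4 were lower with both tissues in 1 fit and 0 to 2 with a library left out. At 24 h, 2 were higher with library totals, with DESeq2 and with both tissues in 1 fit, and 0 to 1 with a library left out; 1 was lower with DESeq2 and 2 with both tissues in 1 fit. For 12 against 6 h, 1 was higher with DESeq2 and 1 with both tissues in 1 fit. With both tissues in 1 fit, lower calls over all genes in the cortex at 12 h were 875 rather than 513. The cause was not tested. With the mouse as a block, the saline tissue comparison gave 9 higher and 7 lower, and interactions gave 0.

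With 3 saline and 4 LPS libraries per comparison and a wider spread between cortical libraries, a gene not called in the cortex is not shown to be unchanged.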
